A study of Mus musculus with 33 samples.

Results

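The genes described here encode subunits of the mitochondrial respiratory chain and of ATP synthase, and they were followed in a nucleus of the mouse auditory brainstem over the days after birth. A gene was a member if its single symbol in the platform annotation was that of a numbered NADH dehydrogenase subunit of complex I (Nduf), of succinate dehydrogenase (Sdha to Sdhd, complex II), of the cytochrome bc1 complex (Uqcr genes and Cyc1, complex III), of a nuclear-encoded cytochrome c oxidase subunit of the Cox4 to Cox8 families that is named with a letter (complex IV), or of ATP synthase (Atp5, complex V). The rule found 53 of the 14857 genes that had a single symbol, each with 1 probe set. Complex I had 27 members, complex II had 4, complex III had 6, and complexes IV and V had 8 each. A further 7 probe sets matched the pattern but shared their symbol with another gene, among them those of Ndufa10, Cox6c, Atp5o and Atp5c1, and were left out.

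Tissue of the medial nucleus of the trapezoid body, abbreviated MNTB, was cut from live brain slices of untreated wild-type FVB mice, whose strain tag reads FVN, at 7 postnatal ages. Groups held 5 mice, or 4 at P4 and P14, and the other ages were P0, P1, P2, P3 and P6. Each of the 33 arrays carried 1 mouse, with a litter number in the sample's title. The dissection enriches MNTB cells but leaves other cells in the tissue, so fewer cells of a type and less RNA per cell cannot be told apart. RNA with an integrity number as low as 5.0 was accepted, per the labels' protocols, and all of it was amplified before labelling.

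The respiratory chain passes electrons from NADH (complex I) and succinate (complex II) through complexes III and IV to oxygen, and ATP synthase (complex V) uses the proton gradient that complexes I, III and IV build to make ATP. Most subunits are encoded in the nucleus, and a few subunits of complex IV exist in widely expressed and tissue-restricted copies. In the MNTB, principal neurons fire at high rates and are driven by the calyx of Held, a giant terminal rich in mitochondria, while oligodendrocytes myelinate its axons over the same weeks.

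Values are log2 intensities, so a difference of 1 is a doubling of signal, and levels of different probe sets cannot be set against each other. Of the 53 genes, 49 averaged above the median of the arrays at every age and 35 had age means over 8 throughout. Cox7b2, Ndufa7 and Ndufb11 stayed under the array median at every age, and Cox8b began under it, so changes of these dim genes are compressed. Arrays of the same age correlated at 0.967 to 0.990 over all probe sets, and no pair held identical values. The mean of the array medians was 4.95 at P6 and 5.07 at P14, so the later comparison is also given after quantile normalization, which forces all arrays to 1 distribution.

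The members' mean was lowest at birth and highest at P14. On the deposited scale the age mean was highest at P14 for 47 of the 53 genes and lowest at P0 for 38. The share over all probe sets was not counted, and the mean of the array medians was also highest at P14 (5.07). Averaged over the 53 genes, the level per mouse was 8.73 ± 0.28 (SD, n = 5) at P0, 8.91 ± 0.17 (n = 5) at P1, 8.89 ± 0.13 (n = 5) at P2, 9.0 ± 0.19 (n = 5) at P3, 9.0 ± 0.17 (n = 4) at P4, 9.08 ± 0.14 (n = 5) at P6 and 9.42 ± 0.21 (n = 4) at P14. On the quantile-normalized scale the P0, P6 and P14 means were 8.77 ± 0.15, 9.12 ± 0.18 and 9.26 ± 0.12. The rise up to P6 was thus of like size on both scales, while that after P6 was smaller on the normalized scale. These means include Cox8b, whose age means spanned 6.33 on the deposited scale, against 1.27 for Ndufa2, the next widest member.

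**Figure D1:**
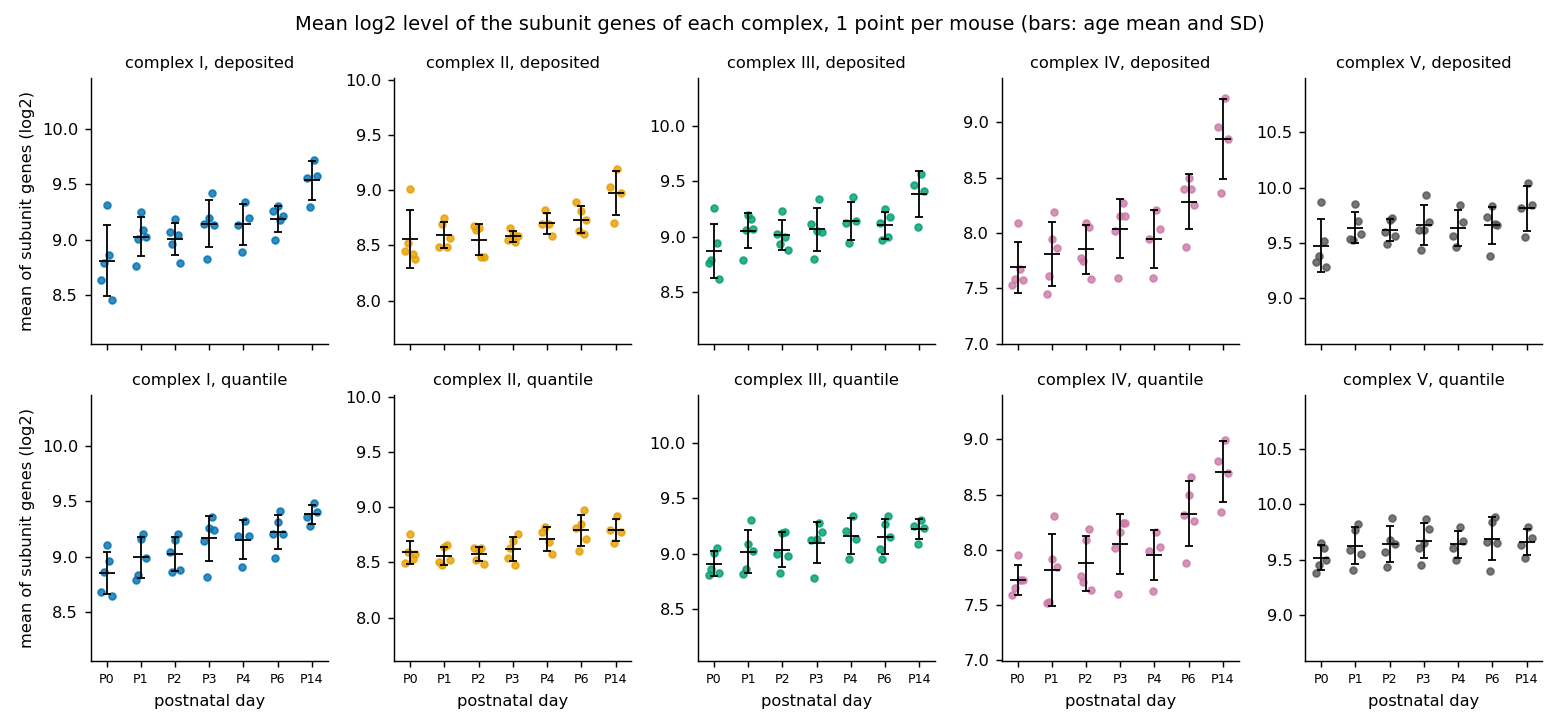
Mean log2 level of the subunit genes of each complex (y axis) by postnatal day (x axis), with 1 point per mouse and bars for the age mean and SD, on the deposited scale (upper row) and after quantile normalization (lower row). Complex I rose from 8.81 at P0 to 9.19 at P6 on the deposited scale. Complex IV rose from 7.69 at P0 to 8.85 at P14 on that scale, or from 8.20 to 8.63 when Cox8b is left out.

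Between P0 and P6, 11 of the 53 genes rose and none fell, with limma and an adjusted p under 0.05 over all 16686 probe sets. That is 20.8% of the members, against 6.42% of all probe sets called higher and 7.95% called lower. The change was above 0 for 50 of the 53 genes, with a median of 0.32, while the median over all probe sets was -0.0066. Among bright probe sets alone, those whose mean was above the median of all values, 10 of 50 members rose against 10.3% of all such probe sets. Of the 11 genes 9 belonged to complex I, and Cox8b of complex IV and Atp5g3 of complex V were the others.

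Complex I, which oxidises NADH, had the highest median change of the 5 complexes over this interval, 0.40, and 26 of its 27 genes changed upward. Its called genes lie in both arms of the enzyme. Ndufs7, Ndufs8 and Ndufv2 are core iron-sulfur subunits of the arm that faces the matrix. Ndufa2 is an accessory subunit of the same arm, Ndufb3, Ndufb9 and Ndufb10 are accessory subunits of the membrane arm, and Ndufa8 and Ndufa13 are accessory subunits of the membrane arm near its junction with the matrix arm.

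Ndufs8 read 7.82, 7.88, 8.65, 8.15 and 7.45 in the 5 P0 mice and 8.87, 8.52, 8.74, 8.52 and 8.68 in the 5 P6 mice. All 5 P6 mice were above the P0 mean, and 3 were above every P0 mouse, since the P0 mouse of litter 3 read within the P6 range. The change was 0.68 ± 0.17 (SE), a 1.60-fold rise, with limma's adjusted p of 0.00553. Ndufv2 read 10.01, 10.04, 10.28, 10.09 and 9.68 at P0 and 10.34, 10.40, 10.39, 10.44 and 10.65 at P6. Its groups did not overlap, and it rose by 0.42 ± 0.11 (limma, adjusted p = 0.00715). Ndufb3 read 11.50, 11.45, 11.94, 11.34 and 11.03 at P0 and 12.11, 11.90, 12.44, 12.30 and 11.84 at P6. It rose by 0.67 ± 0.16 (limma, adjusted p = 0.00489), and 3 of the 5 P6 mice stood above every P0 mouse.

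The other called complex I genes rose by 0.32 (Ndufb9) to 0.63 (Ndufs7) on the log2 scale, with P6 mice above the P0 mean in 5 of 5 cases for each. Not every core subunit was among them. Ndufv1, the NADH-binding flavoprotein subunit, averaged 8.94 ± 0.23 at P0 and 9.01 ± 0.38 at P6, a difference of 0.07 ± 0.17 (SE; limma, adjusted p = 0.873). Ndufs1, the largest core subunit, differed by 0.18 ± 0.15 (limma, adjusted p = 0.521). Ndufa3, an accessory subunit, had the highest change in complex I, 0.75 ± 0.29, but did not pass (limma, adjusted p = 0.0830).

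The other complexes gave few calls between P0 and P6. Complexes II and III had none, with 1 of 4 and 2 of 6 genes at an unadjusted p under 0.05 in limma and median changes of 0.17 in each. In complex IV the median was 0.31 and only Cox8b was called. In complex V the median was 0.20, and Atp5g3, which encodes the proton-carrying c subunit, rose by 0.29 ± 0.10 (limma, adjusted p = 0.0480). The catalytic core of ATP synthase did not pass: Atp5a1 differed by 0.01 ± 0.09 and Atp5b by -0.10 ± 0.08 (limma, adjusted p = 0.951 and 0.475). Differences between complexes were not tested, since subunit genes are not replicates.

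The count between P0 and P6 depended on single mice. It was 17 without the P0 mouse of litter 3, 5 without that of litter 5 and 6 without that of litter 1, and 6 each without the P6 mouse of litter 1, 3 or 5. A total of 5 calls held whichever mouse was left out, those of Cox8b, Ndufa8, Ndufb3, Ndufs8 and Ndufv2. Of the 10 mice left out in turn, 8 ended the calls of Ndufb9 and Atp5g3, 7 that of Ndufs7 and 4 each those of Ndufa2, Ndufa13 and Ndufb10. With the litter number as a block 17 members rose (32.1%), 13 of them in complex I, against 7.54% of all probe sets. After quantile normalization 9 rose (17.0%, against 8.05% of all probe sets), and Atp5g3 and Ndufb9 were lost (adjusted p = 0.0703 and 0.0739 in limma).

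**Figure D2:**
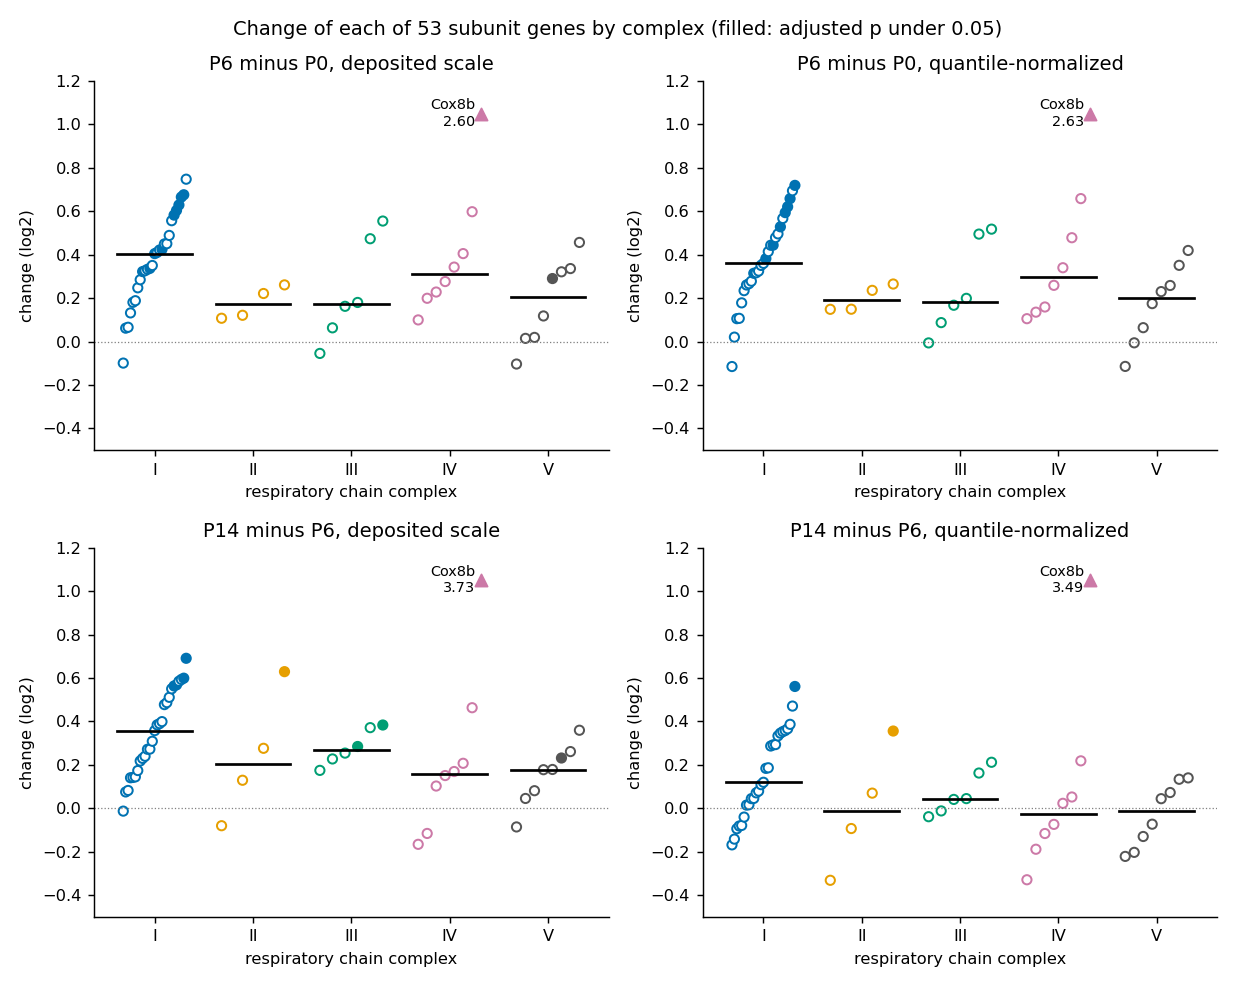
Log2 change of each subunit gene (y axis) by complex (x axis) between P0 and P6 (upper row) and P6 and P14 (lower row), on the deposited scale (left) and after quantile normalization (right). Each point is 1 gene, filled points had an adjusted p under 0.05, black lines are medians, and Cox8b is drawn at the upper edge with its value. The complex I median was 0.40 before P6 on the deposited scale, and after P6 it was 0.36 on the deposited and 0.12 on the normalized scale.

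A line fitted through the 29 mice of P0 to P6 called 11 members with a rising slope, against 7.49% of all probe sets, and none with a falling slope, against 9.83%. Of these, 10 were also called between P0 and P6. Uqcrq, a small subunit of complex III, was called by its slope alone, at 0.08 ± 0.03 log2 per day (limma, adjusted p = 0.0324). This call was lost without the P0 mouse of litter 1, 2 or 5 or the P6 mouse of litter 3 or 4, when the slope ranged from 0.07 to 0.09 over all mice left out in turn. With the litter number as a block the slope called 20 members (37.7%), against 8.67% of all probe sets. Without the P0 mouse of litter 3 it called 17.

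Over the 5 steps from P0 to P6 there was 1 call among the members, Cox8b from P4 to P6 (1.97 ± 0.37, limma, adjusted p = 0.00359), a step that called 0.42% of all probe sets higher. The step from P0 to P1 had the largest median, 0.18, with 47 of 53 genes upward, 6 at an unadjusted p under 0.05 and none called by limma, against 0.204% of all probe sets.

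Between P6 and P14, 9 of the 53 genes rose and none fell, which is 17.0% of the members against 15.7% of all probe sets called higher and 5.14% called lower. The members' count was near the background here. Of the 53, 48 changed upward with a median of 0.25, against 0.05 over all probe sets and 0.17 over bright probe sets. Among bright probe sets 9 of 50 members rose against 23.1%. After quantile normalization 3 members rose (5.66%) against 10.9% of all probe sets, the members' median fell to 0.05, and 35 of 53 were above 0. The 3 were Cox8b, Ndufa2 and Sdha. These were also the 3 calls that held on the deposited scale whichever mouse was left out.

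Sdha, the flavoprotein that oxidises succinate in complex II and the citrate cycle, rose after P6. It read 9.51, 9.46, 9.82, 9.17 and 9.61 at P0, 9.86, 9.85, 9.87, 9.54 and 9.75 at P6 and 10.59, 10.34, 10.36 and 10.32 in the 4 P14 mice. All 4 P14 mice were above every P6 mouse, while the P0 and P6 groups overlapped. The rise after P6 was 0.63 ± 0.12 (SE), 1.55-fold, on the deposited scale and 0.36 after quantile normalization (limma, adjusted p = 0.000148 and 0.0114). The change before P6 was 0.26 ± 0.11, or 0.26 after quantile normalization (limma, adjusted p = 0.127 and 0.0566), and the difference between the intervals did not pass (0.297 and 0.834). Sdha was called before P6 with array weights, without the P0 mouse of litter 3, and with quantile normalization and the litter block together. Its slope was called after quantile normalization, with or without the litter block. Its partners did not pass after P6: Sdhb, the iron-sulfur subunit, changed by 0.28, and the membrane anchors Sdhc and Sdhd by 0.13 and -0.08 (limma, adjusted p = 0.267, 0.447 and 0.866).

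In complex I, Ndufa2, Ndufb10, Ndufs8 and Ndufv1 rose after P6. Ndufa2 read 9.63, 9.99, 10.59, 10.09 and 9.32 at P0, 10.69, 10.23, 10.63, 10.50 and 10.49 at P6 and 11.29, 11.00, 11.27 and 11.23 at P14. The P6 and P14 groups did not overlap, and the change was 0.69 ± 0.19, or 0.56 after quantile normalization (limma, adjusted p = 0.00869 and 0.0137). Ndufv1 read 9.24, 9.13, 9.26, 8.34 and 9.07 at P6 and 9.63, 9.40, 9.59 and 9.68 at P14. The groups did not overlap and the change was 0.56 ± 0.18 (limma, adjusted p = 0.0207), but the P6 mouse of litter 4 was far below the others and the change without it was 0.40 and was not called. The call also ended without the P14 mouse of litter 1 or 5. Those of Ndufb10 and Ndufs8 each ended without the P6 mouse of litter 2, the P6 mouse of litter 4 or the P14 mouse of litter 3, and also without that of litter 1 for Ndufb10 and of litter 2 for Ndufs8. The calls of Ndufb10 (0.60), Ndufs8 (0.57) and Ndufv1 ended after quantile normalization, at 0.36, 0.35 and 0.33 (limma, adjusted p = 0.180, 0.0915 and 0.0633).

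Complex III gave Uqcrc1, a core subunit, and Cyc1, the cytochrome c1 that hands electrons to cytochrome c. Uqcrc1 read 8.06, 7.97, 8.18, 8.01 and 7.94 at P6 and 8.68, 8.21, 8.45 and 8.32 at P14. The groups did not overlap and the change was 0.38 ± 0.11, but 0.16 after quantile normalization (limma, adjusted p = 0.0124 and 0.360). Without the P14 mouse of litter 1 the change was 0.30 and was not called. Cyc1 and Atp5b, the catalytic beta subunit of ATP synthase, changed by 0.28 ± 0.10 and 0.23 ± 0.08 (limma, adjusted p = 0.0485 and 0.0479). The calls ended for 6 and 7 of the 9 mice left out in turn, and that of Atp5b also ended with the litter number as a block (0.20; limma, adjusted p = 0.0597). Quantile normalization took these changes to 0.04 and 0.07. The Rieske iron-sulfur protein Uqcrfs1 differed by 0.17 ± 0.11 (limma, adjusted p = 0.306).

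The medians by complex between P6 and P14 were 0.36 in complex I, 0.20 in II, 0.27 in III, 0.16 in IV and 0.18 in V on the deposited scale. After quantile normalization they were 0.12, -0.01, 0.04, -0.03 and -0.01, so the sign of complexes II, IV and V turned with the scaling. The count of 9 was 4 without the P6 mouse of litter 4 or the P14 mouse of litter 1 and 5 without the P6 mouse of litter 2. With the litter number as a block 16 members rose (30.2%), 11 of them in complex I, against 16.2% of all probe sets.

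Whether genes moved differently after P6 than before it was tested directly. No member passed this test in limma, 2 of 53 had an unadjusted p under 0.05, and 8.02% of all probe sets were called. The same genes were called in both intervals in 4 cases, Cox8b, Ndufa2, Ndufb10 and Ndufs8, and the intervals share the P6 mice. At any age, 17 members differed in limma's F test, which is 32.1% against 28.5% of all probe sets. This count was near the background, and among bright probe sets alone 3572 of 8399 were called. Complex I held 14 of these, complexes II, III and IV held Sdha, Uqcrc1 and Cox8b, and complex V held none, with none of its 8 genes at an unadjusted p under 0.05. With the litter number as a block 34 members differed (64.2%), against 32.1% of all probe sets, and complex V then held 3, Atp5e, Atp5g3 and Atp5mpl (limma, adjusted p = 0.00737, 0.0442 and 0.00766). Without the P14 mouse of litter 3, and with no block, 11 members differed.

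Cox8b was the widest mover among the members. It encodes a copy of complex IV subunit 8 known from heart and skeletal muscle of the mouse. It read 4.10, 3.93, 3.74, 3.81 and 4.94 at P0, 3.81, 3.91, 4.12, 5.62 and 4.25 at P1, 3.86, 4.99, 4.58, 4.56 and 4.16 at P2, 3.96, 4.03, 4.52, 5.1 and 4.88 at P3, 4.72, 4.36, 4.37 and 5.50 at P4, 7.29, 6.15, 7.38, 6.94 and 5.77 at P6 and 10.72, 9.63, 10.91 and 10.46 at P14. Up to P4 most mice were under the array median, and the P6 and P14 groups stood apart from all earlier mice and from each other. The increase was 2.60 ± 0.35 (SE) up to P6 and 3.73 ± 0.37 from P6 to P14 (limma, adjusted p = 1.60e-06 and 3.54e-09). After quantile normalization the increases were 2.63 and 3.49. The difference between the intervals did not pass (limma, adjusted p = 0.311), and no fold is given because the early levels are near background.

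Markers of several cell types changed over the same intervals as Cox8b. Of 8 muscle markers measured, none was called up to P6 in limma, where Acta1, at -0.41, was the 1 with an unadjusted p under 0.05 (adjusted 0.192) and Mb differed by 0.18 (adjusted p = 0.734). Of the 8, 2 rose from P6 to P14, Mb, which encodes myoglobin, by 2.28 and Mylpf by 0.65 (limma, adjusted p = 4.09e-08 and 0.0243). Only 3 of the 8 changed upward after P6, with a median of -0.11, and Ckm fell after quantile normalization (-0.34; limma, adjusted p = 0.0297). Their mean level was 4.27 to 4.67 over the P6 mice and 4.51 to 4.83 over the P14 mice. At each of these ages 7 of 8 were under the array median, with Mylpf, Acta1 and Tnnt3 among them at both. Mb was under it at P6 but not at P14, and Ckm at P14 but not at P6. All 8 oligodendrocyte markers rose in both intervals, from a mean level of 4.48 to 4.82 at P0 through 7.68 to 8.45 at P6 to 10.3 to 10.5 at P14. Other lists rose too: up to P6 and after it, 3 and then 5 of 5 microglia markers, 4 and 4 of 6 astrocyte markers, 4 and 4 of 5 principal neuron markers and 1 and 3 of 4 endothelial markers were called higher. After P6, 1 astrocyte and 1 principal neuron marker fell. Of 8 neuron markers, 4 rose and 2 fell up to P6, and 5 rose and 2 fell after it. Precursor markers gave 4 of 5 higher up to P6, then 1 higher and 1 lower. Pericyte markers gave 1 and then 2 of 4 higher, and meninges markers 0 and then 2 of 4. Of all probe sets, 6.42% were called higher and 7.95% lower up to P6, and 15.7% higher and 5.14% lower after it. The 5 genes whose 33 values followed Cox8b most closely were Ermn (r = 0.970), Gpr37 (0.970), Pla2g4a (0.969), Mal (0.964) and Lpar1 (0.963), a search added after the values were seen. All share the 2 late rises with age, so these r are descriptions. The part of any of these cell types in the Cox8b signal was not tested.

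The other tissue-restricted copies did not follow Cox8b. Cox6a2, the muscle-type copy of subunit 6a, averaged 5.07 ± 0.33 (SD) at P0, 5.48 ± 0.44 at P6 and 5.36 ± 0.22 at P14, overlapping at all 3 ages. Cox7b2 averaged 3.88 ± 0.35, 4.16 ± 0.26 and 3.99 ± 0.37 at these ages, all under the array median. The log2 ratios Cox6a2 to Cox6a1, Cox7b2 to Cox7b and Cox4i2 to Cox4i1 were tested over mice between P0 and P6 and between P6 and P14, 6 exact permutation tests in all. None passed adjustment; the lowest p was 0.0476 for Cox4i2 to Cox4i1 after P6 (two-sided exact permutation test, adjusted 0.222), a change of -0.29, when the smallest p possible was 0.00794. Cox4i2 was under the array median at all 3 ages, so this ratio sets a dim probe set against a bright one. The Cox4 genes carry isoform names that fall outside the member rule. The widely expressed Cox8a was not analysed here.

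**Figure D3:**
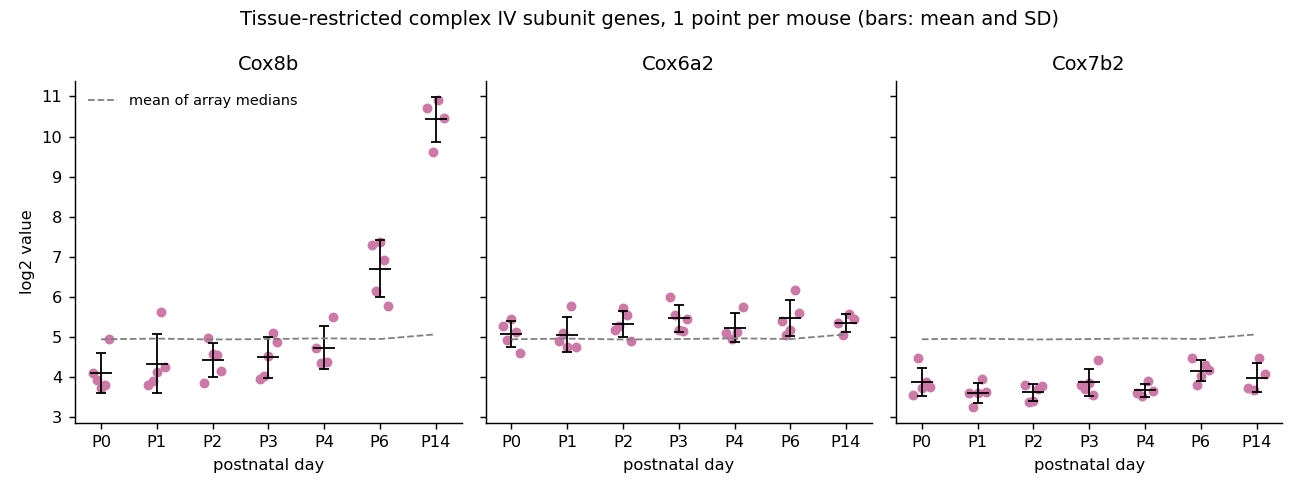
Log2 value (y axis) of Cox8b, Cox6a2 and Cox7b2 by postnatal day (x axis), with 1 point per mouse, bars for mean and SD, and a dashed line for the mean of the array medians. Cox8b averages 4.11 in newborn mice, 6.70 in P6 mice and 10.4 in P14 mice, while the age means of Cox6a2 lie between 5.06 and 5.48 and those of Cox7b2 between 3.61 and 4.16.

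The promoter windows of these genes differ in base composition. RefSeq's table for GRCm38.p6, which covers 250 bases before to 50 after the annotated start, held 43 of the 53 genes. The windows are shown for Cox8b and for 3 complex I genes that rose up to P6 and whose windows each hold a different motif, with motif matches in capitals. Among the other complex I genes called up to P6, the windows of Ndufa13, Ndufb3, Ndufb10 and Ndufv2 held no match. Ndufa2 and Ndufb9 had no window. The windows shown are those of Cox8b (chr7:140900397-140900696, minus strand), Ndufa8 (chr2:36049289-36049588, minus strand), Ndufs7 (chr10:80249199-80249498, plus strand) and Ndufs8 (chr19:3912725-3913024, minus strand).
Cox8b: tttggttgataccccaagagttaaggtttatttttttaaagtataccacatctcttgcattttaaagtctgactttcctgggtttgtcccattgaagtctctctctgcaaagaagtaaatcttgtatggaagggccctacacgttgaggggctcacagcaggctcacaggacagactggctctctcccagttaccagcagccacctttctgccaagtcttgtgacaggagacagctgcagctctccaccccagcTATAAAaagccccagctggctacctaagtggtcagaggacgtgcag
Ndufa8: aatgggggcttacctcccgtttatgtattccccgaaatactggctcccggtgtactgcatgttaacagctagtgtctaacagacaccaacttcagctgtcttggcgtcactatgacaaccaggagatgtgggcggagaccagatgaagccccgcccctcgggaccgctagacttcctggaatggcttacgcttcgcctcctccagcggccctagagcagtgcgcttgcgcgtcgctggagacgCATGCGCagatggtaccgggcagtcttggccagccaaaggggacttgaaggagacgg
Ndufs7: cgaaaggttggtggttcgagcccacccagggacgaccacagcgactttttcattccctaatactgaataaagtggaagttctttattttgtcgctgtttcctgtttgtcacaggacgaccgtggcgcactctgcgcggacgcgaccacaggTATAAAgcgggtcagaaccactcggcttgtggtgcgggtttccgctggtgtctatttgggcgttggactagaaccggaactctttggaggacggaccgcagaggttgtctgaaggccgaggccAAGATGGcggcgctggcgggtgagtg
Ndufs8: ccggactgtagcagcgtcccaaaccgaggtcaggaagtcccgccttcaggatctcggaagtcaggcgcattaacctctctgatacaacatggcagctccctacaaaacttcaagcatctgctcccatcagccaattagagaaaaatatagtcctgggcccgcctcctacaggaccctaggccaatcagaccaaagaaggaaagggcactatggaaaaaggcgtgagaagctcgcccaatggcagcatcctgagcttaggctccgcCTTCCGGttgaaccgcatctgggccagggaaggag

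The capitals mark a match on either strand to NRF1 (GCGCATG), the ETS factor GABPA (CCGGAAG), YY1 (AAGATGG), ERR (AAGGTCA) or a TATA box (TATAAA), the factors named being regulators of nuclear genes for mitochondria. Ndufa8 holds the NRF1 letters, Ndufs7 the YY1 and TATA letters and Ndufs8 the ETS letters, whereas Cox8b holds the TATA letters alone. Counted from the annotated start, the TATA letters begin at base 5, after the start, in Cox8b and at base -99 in Ndufs7. Over the 43 member genes NRF1 letters were in 6 (14.0%, against 4.41% of all genes in the table), ETS in 7 (16.3% against 9.93%), YY1 in 8 (18.6% against 7.28%), ERR in 4 (9.30% against 5.38%) and the TATA letters in 6 (14.0% against 15.7%). The member windows had a median of 57.2% GC and 18 CG dinucleotides, against 52.7% and 7 over all windows, and these motifs differ in GC content, so the shares are descriptions. The ETS and YY1 letters share AAG and may overlap. Cox8b had 48.3% GC and 2 CG dinucleotides, the fewest of any member window.

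Mice of the same age differed in a way that followed the litter number of their labels. On the deposited scale the P0 mouse of litter 3 was the highest of its age for 46 of the 53 genes. The P14 mouse of litter 2 was the lowest of its age for 42. Such counts were not made over all probe sets. The median of that P0 array was 5.12, against 4.86 to 4.93 in the other P0 mice. That of the P14 array was 5.03, the lowest at P14. After quantile normalization the members' mean at P0 was 8.98 in litter 3 and 8.85 in litter 4, the next highest. Litter 2 had the lowest mean at P3, P4, P6 and P14. With litter number as a term beside age, 19 members were called (35.8%) against 6.86% of all probe sets, by limma's F test. After quantile normalization 21 were called (39.6%) against 3.64%. This test was added after the values were seen, and whether a number marks the same litter at each age is not stated in the labels.

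The 19 genes were 9 of complex I, 2 of III, 3 of IV and 5 of V, and none of complex II. In all 19, mice of litters 3 and 4 averaged above their age means and those of litters 2 and 5 below. These genes were chosen by the litter test on the same values, so their shared direction is not separate evidence. Over all members, litter 3 was above in 50 and below in 3, and litter 4 above in 39 and below in 14. Litter 2 was below in 47 and above in 6, and litter 5 below in 44 and above in 9. The P1, P2 and P6 arrays of litter 4 had the lowest array weights. Cox7b, a small complex IV subunit, read 6.32, 6.01, 7.89, 6.02 and 6.18 at P0 in litters 1 to 5, 6.81, 6.34, 7.80, 6.95 and 7.50 at P6 and 7.90, 6.85, 8.39 and 7.03 in litters 1, 2, 3 and 5 at P14. Its litter 3 mice lay 0.80 above their age means on average and its litter 2 mice 0.61 below, while its change from P0 to P6 was 0.60 ± 0.40 (SE; limma, adjusted p = 0.401). Cox6b1 read 11.53, 11.60, 12.25, 11.79 and 11.54 at P0 and 12.26, 11.73, 12.34 and 12.22 at P14, with litter 3 the highest at both ages. Among other lists the share called for litter number was 18 of 68 genes (26.5%) for the mitochondrial ribosome, a list added after the files were seen. The share was 1 of 15 for the citrate cycle with pyruvate dehydrogenase and 1 of 14 for mitochondrial biogenesis. For Cox4i1, Cox4i2, Atpif1 and Micos10, whose names fall outside the member rule, it was 3 of 4. Markers gave 2 of 5 for principal neurons, 2 of 6 for astrocytes and 0 of 8 for oligodendrocytes. Litter, dissection and RNA handling cannot be told apart.

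**Figure D4:**
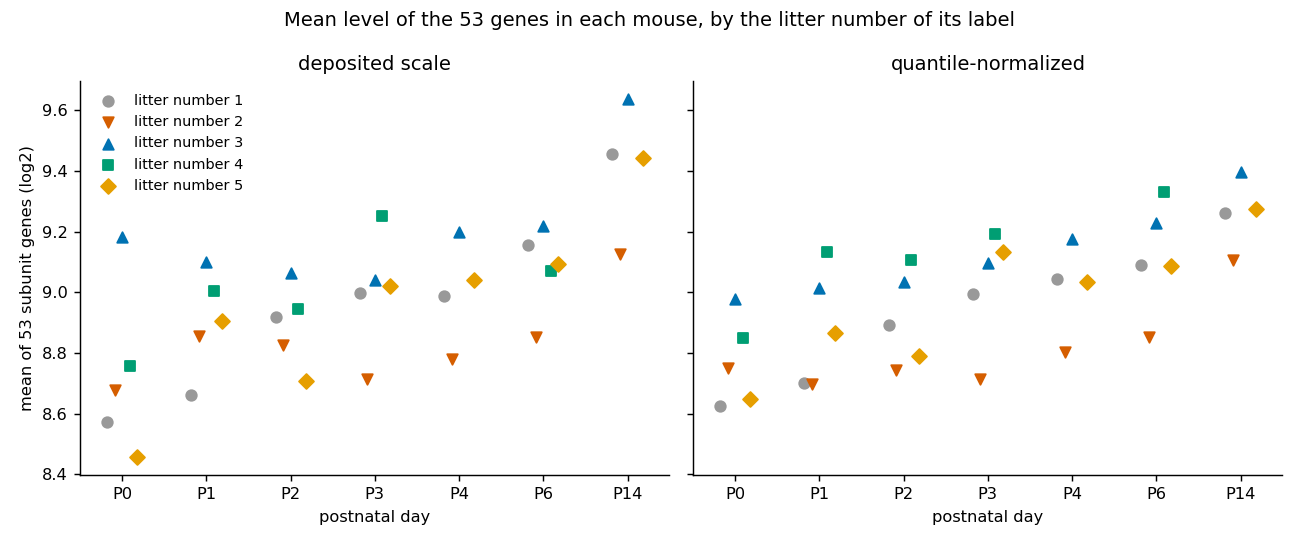
Mean log2 level of the 53 genes in each mouse (y axis) by postnatal day (x axis) and litter number, on the deposited scale (left) and after quantile normalization (right). Litter 3 is highest at P0 (9.18) and P14 (9.64) on the deposited scale, and litter 2 is lowest from P3 on.

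Genes that work beside the chain changed to differing degrees, and their counts stand against 6.42% of all probe sets called higher up to P6 and 15.7% after it. Of 15 genes of the citrate cycle and pyruvate dehydrogenase (Pdha1, Pdhb and Dlat), 5 rose and 1 fell up to P6, with a median of 0.28. Sucla2, Suclg1, Idh3b and Idh3g rose by 0.48, 0.41, 0.38 and 0.33, and Idh2 fell by 0.51. After P6, 5 of 15 rose, led by Ogdh, a subunit of the oxoglutarate dehydrogenase complex, at 0.98, and none fell. After quantile normalization 3 rose after P6, Ogdh, Suclg1 and Idh3g, while Cs, citrate synthase, and Idh2 fell by 0.35 and 0.61, and the median went from 0.15 to -0.06. Of 12 complex I assembly genes only Ndufaf2 rose up to P6 (0.49). After P6, Ndufaf2 and Ecsit rose by 0.38 each on the deposited scale, with a median of 0.05 over the 12. Both calls ended after quantile normalization, where Ndufaf5 fell by 0.55 and the median was -0.12. Of 23 assembly genes of the other complexes, Cox17, the copper chaperone of complex IV, rose by 1.03 up to P6, the 1 call on the deposited scale against 4 after quantile normalization. After P6, 5 of the 23 rose, with Atpaf1, an ATP synthase assembly factor, at 1.48, Cox14 at 0.87 and Uqcc3 at 0.82. After quantile normalization 4 rose, without Uqcc3, and Ttc19 fell by 0.30.

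Regulators of mitochondrial biogenesis were split. None of 14 passed up to P6 by limma, and 1 had an unadjusted p under 0.05. After P6, Ppargc1b, Twnk, Polrmt and Esrra rose by 0.45, 0.51, 0.31 and 0.22, whereas Esrrg and Ppargc1a, the coactivator also named PGC-1 alpha, fell by 0.65 and 0.35 (limma, adjusted p = 0.000533 and 0.00449). After quantile normalization Twnk and Esrra rose, and Esrrg, Ppargc1a and Esrrb fell, by 0.86, 0.54 and 0.55, while the median over the 14 went from 0.13 to -0.11. Of 11 glycolysis genes, Aldoc rose by 0.70 and Pfkp fell by 0.46 up to P6, and after P6 there were 4 higher and 1 lower, with Aldoc at 0.86 and Pfkm at 0.79. Of 10 genes for mitochondrial transport and energy transfer, Ckmt1, the mitochondrial creatine kinase, rose by 0.36 and then 0.42, the later change being 0.16 and not called after quantile normalization (limma, adjusted p = 0.349).

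Outside the members, the genes whose values over the 33 mice most resembled the members' mean were Ddt (r = 0.961), Atox1 (0.934), Cend1 (0.932), Cox17 (0.930) and Dpm3 (0.915). These points share age and litter, so the r values describe the likeness only. Ddt averaged 6.92 at P0, 7.72 at P6 and 8.50 at P14.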

How the data were processed

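The authors deposited a table of log2 values of 33 arrays for 16686 probe sets. Partek 6.3, RMA and build mm9 are named in the submitters' processing notes, and settings were not stated. Symbols came from the platform annotation.

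Limma 3.58.1 (R 4.3.3) was fitted to all 33 arrays with a mean for each age. The p-values, all two-sided, were adjusted by Benjamini-Hochberg across the whole array, with a threshold of 0.05, and measure the spread between 4 or 5 mice per age. The fits were tested on simulated data. Members, lists and comparisons were chosen with earlier results of these data known. Named members led a comparison in their complex, are catalytic or have a tissue-restricted copy.

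The litter number of the titles was used as a block in an alternative fit, since the labels call it a litter. Deviations from age means correlated at a mean of 0.0921 between same-numbered mice of different ages (94 pairs, 36 over 0.1). Between others the mean was -0.0216 (372 pairs, 58 over 0.1). Other alternatives were quantile normalization, median centring, array weights, bright probe sets, the compared ages alone and each mouse left out.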

Additional observations from a re-analysis of the deposited data

Results flagged for a closer look

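Of 168 sets of values tested (the named members and the complex means at each age), 13 held a mouse whose distance from its nearest neighbour, relative to the range, was beyond Dixon's 95% limit. Chance gives about 1 in 20, and no explanation was weighed. At P0, the complex II mean of 9.013, the complex IV mean of 8.088 and Ndufb9 at 10.441 each stood above the other mice, and all 3 belong to the mouse of litter 3. Cox8b at P1 stood high in 1 mouse at 5.617. Sdha was low in 1 mouse at P1, at 9.483. At P2, Ndufa2 at 9.766 and Ndufb9 at 10.029 were low in 1 mouse each. Uqcrq at P3 was low in 1 mouse, at 8.507. At P6, Ndufs7 was low at 7.447 in litter 2 and Ndufv1 was low at 8.341 in litter 4, the array of lowest weight (0.271). At P14, Atp5b was low at 11.062 in litter 2, Ndufa8 was high at 11.331 and Sdha was high at 10.592.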

How the results depend on the processing

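No named change turned sign under another setting while called. Between P0 and P6 the members called were 17 with the replicate block, 4 with only the arrays of those ages (fewer arrays estimate the spread) and 22 with quantile normalization and the replicate block, and 5 to 17 with each mouse left out. Between P6 and P14 they were 3 after quantile normalization, 5 after median centring, 16 with the replicate block, 16 with array weights, 5 without the 3 arrays of lowest weight (P6, P2 and P1 of litter 4), and 4 to 12 with each mouse left out. The slope called 20 with the replicate block, 25 with quantile normalization and the replicate block, and 8 to 17 with each mouse left out. The F test over ages called 34 with the replicate block, 28 with array weights, 29 with quantile normalization and the replicate block, and 11 to 25 with each mouse left out. The comparison of the intervals called 2, both lower after P6, with quantile normalization and the replicate block. After quantile normalization the median change from P6 to P14 was 0.12 in complex I, -0.012 in II and 0.042 in III. Except where a setting removed arrays, the cause was not tested. The fit without the 3 arrays, the joint quantile and block fit and the litter term were chosen after seeing the data. Every member has 1 probe set, so averaging probe sets changed nothing. Slide and scan batches were not analysed here. Dim probe sets and groups of 4 or 5 mice limit what small changes could be called.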
